A study of Mus musculus with 20 samples.

Results

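Secreted factors of the FGF, HGF and neurotrophic families were followed in fibroadipogenic progenitors, which are mesenchymal cells between the muscle fibres with fibroblast and fat cell fates, sorted from the hindlimb muscle of mice with or without a pancreatic tumour. The 8 genes were listed by symbol, Hgf, Fgf2, Fgf7, Fgf10, Bdnf, Ptn, Mdk and Nrg1, and all 8 were found among the 24394 symbols shared by the 3 deposited count tables. The animals were male C57BL/6J mice, whose age is not given in the sources used here. In the tumour group (KPC), 2 M cells of the KPCY line, a mouse pancreatic tumour line grown in culture, were placed in the pancreas in 50 µL, and the control group had sham surgery. Day 14 has 4 KPC and 3 control libraries, day 21 has 3 of each, and day 26 has 3 KPC and 4 control libraries. The labels call the libraries of a group biological replicates, and do not say whether a library holds cells of a single mouse or of pooled mice. All groups share the sort, which kept live nucleated cells that carried SCA-1 and lacked CD31, CD45 and α7-integrin. Transcripts of other cell types were nevertheless counted in the libraries, with the levels given beside the results.

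Several of these factors are released by cells of the connective tissue, and most act on receptor tyrosine kinases of neighbouring cells. HGF, the ligand of the receptor MET, is stored in the muscle matrix and is known for bringing quiescent satellite cells into the cell cycle, and FGF2 is a heparin-bound mitogen of the same cells. FGF7 and FGF10 are mesenchymal ligands of an epithelial splice form of FGFR2, BDNF is the ligand of TrkB (Ntrk2), and NRG1 is a ligand of ERBB3 and ERBB4 that Schwann cells and the neuromuscular junction depend on. Pleiotrophin (Ptn) and midkine (Mdk) form a small family of heparin-binding, neurite-promoting cytokines that bind the receptor phosphatase PTPRZ1, ALK and syndecans.

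For the 3 genes called at day 21 (Hgf, Fgf7 and Fgf10) and for Ptn, whose KPC effect differed between days 14 and 26, the start region in the RefSeq table (build GRCm38.p6) is shown 5′ to 3′ on the gene's strand. Each window holds 300 bases and ends shortly after the annotated start. It lies at chr5:16553245-16553544 (plus strand) for Hgf, at chr2:126034408-126034707 (plus strand) for Fgf7, at chr13:118714449-118714748 (plus strand) for Fgf10 and at chr6:36810130-36810429 (minus strand) for Ptn. Hgf has a further start in the table, which is not shown. Capitals mark matches to the motifs that were searched.
Hgf: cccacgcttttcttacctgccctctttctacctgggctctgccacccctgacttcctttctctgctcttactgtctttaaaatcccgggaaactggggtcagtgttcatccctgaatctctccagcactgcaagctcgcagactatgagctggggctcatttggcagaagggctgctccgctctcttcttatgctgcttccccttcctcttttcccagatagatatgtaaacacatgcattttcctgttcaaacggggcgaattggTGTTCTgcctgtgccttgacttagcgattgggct
Fgf7: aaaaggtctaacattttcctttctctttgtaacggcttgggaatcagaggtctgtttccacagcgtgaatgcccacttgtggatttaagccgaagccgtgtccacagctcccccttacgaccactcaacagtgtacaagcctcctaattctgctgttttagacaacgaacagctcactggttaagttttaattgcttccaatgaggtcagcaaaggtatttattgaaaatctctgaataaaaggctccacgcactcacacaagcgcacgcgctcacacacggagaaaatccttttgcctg
Fgf10: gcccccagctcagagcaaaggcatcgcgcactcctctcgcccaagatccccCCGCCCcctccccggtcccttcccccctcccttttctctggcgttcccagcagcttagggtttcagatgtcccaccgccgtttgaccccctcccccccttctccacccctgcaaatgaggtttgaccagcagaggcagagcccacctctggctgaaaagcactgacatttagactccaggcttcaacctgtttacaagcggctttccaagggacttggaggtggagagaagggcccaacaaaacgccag
Ptn: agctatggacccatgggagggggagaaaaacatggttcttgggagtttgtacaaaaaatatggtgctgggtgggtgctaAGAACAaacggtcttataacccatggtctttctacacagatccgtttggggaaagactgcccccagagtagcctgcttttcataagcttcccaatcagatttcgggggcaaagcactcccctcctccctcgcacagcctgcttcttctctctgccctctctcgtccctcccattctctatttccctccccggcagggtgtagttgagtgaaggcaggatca

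Both strands were searched for AP-1 (TGANTCA), STAT (TTCNNNGAA), NF-kB (GGGANTTTC), CRE (TGACGTCA), C/EBP (TTGCNNAA), the glucocorticoid receptor hexamer (AGAACA), the hypoxia response core (ACGTG), the GC box (GGGCGG) and the TATA box (TATAAA). The Hgf window holds the hexamer on the opposite strand, 16 bases after the start, and the Ptn window holds it on the gene's strand, 171 bases before the start. It is found in 19.0% of the 32817 start windows of the table. The Fgf10 window holds a GC box, as do 35.6% of all windows, and the Fgf7 window holds none of the 9 motifs. AP-1 letters occur in 7.81% of windows, STAT in 8.29%, NF-kB in 1.11%, CRE in 1.79%, C/EBP in 10.8%, the hypoxia core in 19.6% and TATA in 13.6%, and none of these occurs in the 4 windows shown. Start windows were found for 6 of the 8 genes, and none was found for Mdk and Nrg1.

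Levels differed widely between the factors. Per kilobase of exon (GENCODE vM21, the mm10 build of the tables), Fgf7 and Mdk stood highest in every group. Fgf7 averaged 27.4 CPM per kb in KPC and 13.7 in control at day 21, where CPM are counts per megacount of the library total, here scaled over all 20 libraries. Mdk averaged 40.8 CPM per kb in KPC at day 26, where it stood above Fgf7 at 12.3, while in control libraries of that day it averaged 11.3 and Fgf7 15.3. Fgf10 came next at group means between 3.18 and 6.87 CPM per kb, followed by Fgf2, Hgf and Ptn at group means between 0.332 and 2.01, whose order changed from group to group. Bdnf and Nrg1 stayed at or below 0.0315 and 0.0130 CPM per kb on average.

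Bdnf and Nrg1 were close to absent and could not be tested. Bdnf had 1, 0, 0 and 6 counts in KPC and 11, 1 and 0 in control libraries at day 14, 0 in every KPC library and 0, 2 and 0 in control at day 21, and 3, 0 and 0 in KPC and 0 in every control library at day 26. Nrg1 had no count in KPC and 2, 0 and 2 in control at day 14, 0, 0 and 1 in KPC and none in control at day 21, and 3, 4 and 0 in KPC and 0, 0, 4 and 0 in control at day 26. A count of 0 allows a level of up to 0.113 to 0.232 CPM (3 counts, counting error only) at total counts of 26.4 to 12.9 M (megacounts) per library. Differences below that limit were not detectable at this depth. The other 6 genes were tested at each day.

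**Figure D1:**
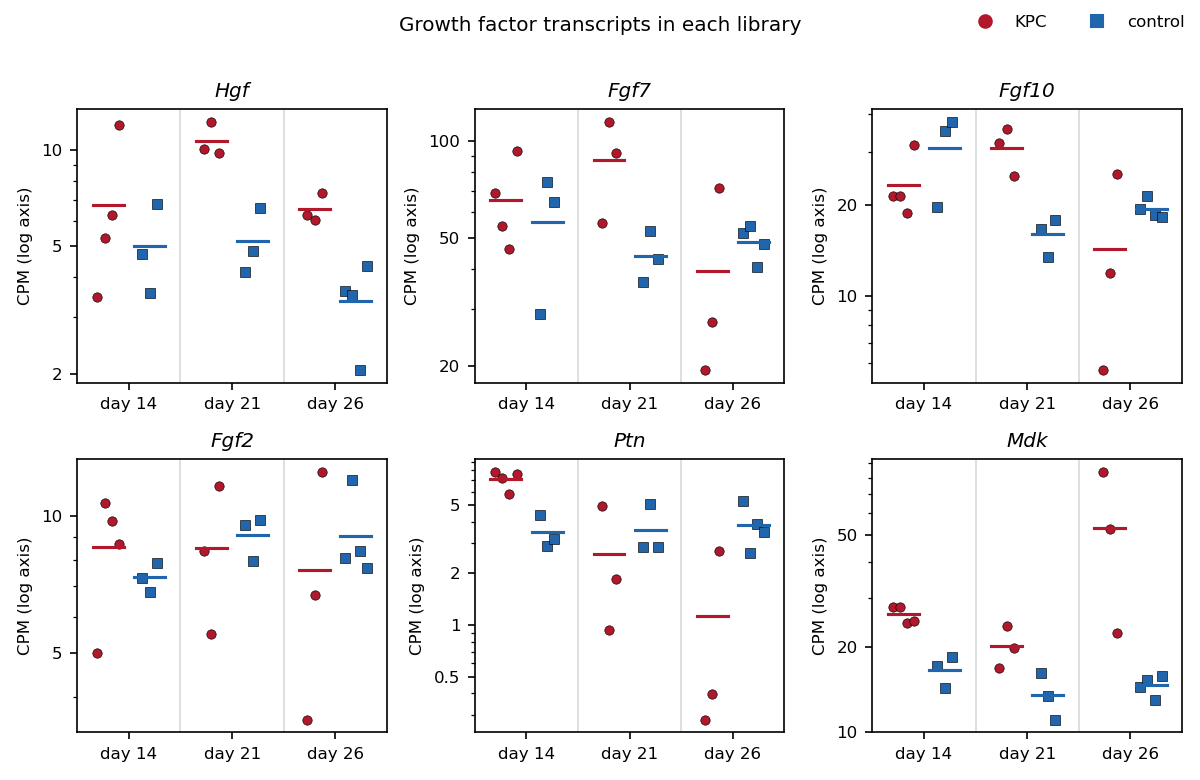
CPM (log axis) of the 6 tested factors in every library, scaled within each day; circles are KPC libraries, squares are control libraries, and horizontal bars are group means. At day 21 all 3 KPC libraries lie above all 3 control libraries for Hgf, Fgf7, Fgf10 and Mdk. The KPC libraries spread widely at day 26, with replicates 1 and 2 below replicate 3 for Fgf2, Fgf7, Fgf10 and Ptn and above it for Mdk.

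Hgf (chromosome 5, 16553495 to 16620152, plus strand, mm10) was higher in KPC at day 21. It lay at 10.1, 12.2 and 9.79 CPM in KPC and at 4.16, 4.84 and 6.59 CPM in control libraries of day 21. The groups did not overlap, and every KPC library exceeded the highest control. The fold was 2.05 (log2 fold change 1.04 ± 0.25 SE), with an adjusted p of 0.0210 by edgeR's quasi-likelihood test, in which p-values are adjusted by Benjamini-Hochberg over all genes tested at the day and a gene is called under 0.05. Leaving out KPC replicate 2 (adjusted p 0.0597), control replicate 1 (0.102) or control replicate 2 (0.0878) ended the call, as did the fit of all 20 libraries (0.115), with log2 fold changes between 0.90 and 1.24 over the 6 left-out fits and adjusted p between 0.00266 and 0.115 over all 13 alternatives.

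Hgf was not called at the other days. At day 14 it lay at 3.47, 5.32, 6.27 and 11.9 CPM in KPC and at 4.74, 3.57 and 6.77 CPM in control (log2 0.43 ± 0.38, adjusted p 0.680). KPC replicate 4 alone lay above the controls, and without it the log2 fold change was -0.02. At day 26 Hgf lay at 6.24, 6.03 and 7.32 CPM in KPC and at 3.62, 3.51, 2.05 and 4.35 CPM in control, with no overlap (log2 0.95 ± 0.31, adjusted p 0.0892). Unlike the other factors of that day, Hgf had similar levels in all 3 KPC libraries, and its log2 fold change without KPC replicate 3 was 0.85 (adjusted p 0.0600). With 1 scaling over all 20 libraries, the day 21 KPC libraries (9.98 to 12.5 CPM) exceeded every control library of the 3 days (2.08 to 6.66 CPM), and overlapped with the day 14 KPC libraries (3.34 to 11.7 CPM).

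Met, which encodes the HGF receptor, was called higher at day 21. It averaged 21.9 ± 4.51 CPM in KPC and 7.89 ± 1.32 CPM in control (SD, n = 3 each), a log2 fold change of 1.47 ± 0.21 (adjusted p 0.00108). It was not called at day 14 (7.30 ± 1.79 CPM in KPC, n = 4, and 8.86 ± 0.745 CPM in control, n = 3; adjusted p 0.650) or at day 26 (16.0 ± 9.80 CPM in KPC, n = 3, and 6.12 ± 1.67 CPM in control, n = 4; log2 1.39 ± 0.47, adjusted p 0.0941). Spint2, an inhibitor of the proteases that activate HGF, was also called higher at day 21 (log2 2.70 ± 0.69, adjusted p 0.0258) at low levels, 2.75 ± 1.44 CPM in KPC and 0.416 ± 0.221 CPM in control (SD, n = 3 each).

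Fgf10 (chromosome 13, 118669791 to 118792115, plus strand) had the smallest adjusted p of the 8 genes at day 21. It lay at 32.1, 35.9 and 25.0 CPM in KPC and at 16.7, 13.5 and 17.9 CPM in control, without overlap. The fold was 1.93 (log2 0.95 ± 0.18, adjusted p 0.00512), and the call held in each of the 6 fits that left out a library, with log2 fold changes of 0.83 to 1.08 and adjusted p of 0.00356 to 0.0330. It was lost in the fit of all 20 libraries (adjusted p 0.139). Control levels differed between the days: with 1 scaling, day 14 controls spanned 19.3 to 37.0 CPM, and the day 21 KPC libraries (25.5 to 36.7 CPM) lay within that range.

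Fgf7 (chromosome 2, 126034658 to 126091185, plus strand) was called higher at day 21 as well. It lay at 55.4, 115 and 91.6 CPM in KPC and at 36.4, 52.5 and 42.8 CPM in control. KPC replicate 1 lay only just above the highest control, and the groups did not overlap. The fold was 1.99 (log2 0.99 ± 0.26, adjusted p 0.0439). The call was lost without any of control replicate 1 (adjusted p 0.148), control replicate 2 (0.0744), control replicate 3 (0.131), KPC replicate 2 (0.0770) or KPC replicate 3 (0.0773), and also with no filter (0.111) and in the fit of all 20 libraries (0.194). The adjusted p was 5.7e-05 without KPC replicate 1. Over the 13 alternatives it ran from 5.7e-05 to 0.194, with log2 fold changes of 0.75 to 1.23.

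At day 14 neither Fgf7 nor Fgf10 was called. Fgf7 lay at 69.0, 54.4, 46.2 and 93.0 CPM in KPC and at 28.8, 74.2 and 64.3 CPM in control (log2 0.24 ± 0.38, adjusted p 0.853). Fgf10 lay at 21.5, 21.5, 18.9 and 31.6 CPM in KPC and at 19.7, 35.3 and 37.8 CPM in control (log2 -0.39 ± 0.23, adjusted p 0.485). Control replicate 1 was the lowest control for both genes, and the groups overlapped.

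At day 26 the KPC libraries stood far apart from each other for both genes. Fgf7 lay at 19.3, 27.3 and 71.5 CPM in KPC and at 51.8, 54.3, 40.4 and 47.8 CPM in control. Fgf10 lay at 5.68, 11.9 and 25.5 CPM in KPC and at 19.4, 21.4, 18.6 and 18.3 CPM in control. In both genes KPC replicates 1 and 2 lay below every control and KPC replicate 3 above every control. The log2 fold changes were -0.30 ± 0.40 for Fgf7 (adjusted p 0.599) and -0.43 ± 0.42 for Fgf10 (adjusted p 0.466), and neither was called. Without KPC replicate 3 both were called lower, Fgf7 at -1.07 ± 0.18 (adjusted p 0.00148) and Fgf10 at -1.16 ± 0.27 (adjusted p 0.00778). That fit leaves out the library that differs, so it was chosen by the outcome, and over the 15 alternatives of that day the adjusted p ran from 0.00148 to 0.960 for Fgf7 and from 0.00778 to 0.922 for Fgf10.

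Fgf2 (chromosome 3, 37348346 to 37410108, plus strand) was not called at any day. It lay at 5.01, 10.6, 9.75 and 8.66 CPM in KPC and at 7.30, 6.80 and 7.89 CPM in control at day 14 (log2 0.21 ± 0.25, adjusted p 0.781). It lay at 8.38, 5.50 and 11.6 CPM in KPC and at 9.52, 7.96 and 9.77 CPM in control at day 21 (log2 -0.09 ± 0.28, adjusted p 0.864). At day 26 it lay at 3.57, 6.70 and 12.5 CPM in KPC and at 8.08, 12.0, 8.36 and 7.67 CPM in control (log2 -0.25 ± 0.40, adjusted p 0.668). The KPC libraries spread more widely than the controls at each day, and surrounded them on both sides. Of the exon sequence of Fgf2, 640 bases overlap Nudt6 on the opposite strand, and since the strand setting of the counting is not given in the sources used here, reads there cannot be assigned to either gene. Nudt6 itself was not called (log2 0.02, 0.33 and 0.20 at days 14, 21 and 26, adjusted p 0.987, 0.640 and 0.589).

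Among the FGF receptors, Fgfr1 was the most abundant in counts, at 917 ± 91.1 CPM in KPC and 774 ± 30.8 CPM in control at day 21 (SD, n = 3 each; log2 0.24 ± 0.11, adjusted p 0.183). Fgfr2, which encodes the receptor of FGF7 and FGF10, lay at 6.56 ± 1.63 CPM in KPC and 8.25 ± 1.65 CPM in control at that day (adjusted p 0.473), and was not called at days 14 or 26 either (adjusted p 0.519 and 0.818). The count tables do not separate its splice forms. Fgfr3 was called higher at day 21 at low levels, 5.28 ± 2.27 CPM in KPC and 1.44 ± 0.228 CPM in control (log2 1.86 ± 0.43, adjusted p 0.0168).

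Ptn (chromosome 6, 36714929 to 36810220, minus strand) had its highest levels in KPC at day 14. It lay at 7.87, 7.19, 5.80 and 7.61 CPM in KPC and at 4.40, 2.88 and 3.20 CPM in control, with no overlap. The log2 fold change was 1.02 ± 0.25 (adjusted p 0.0689), so edgeR did not call it, while DESeq2 (adjusted p 0.00643) and limma-voom (0.0185) did, in a range of 0.00643 to 0.729 over the 14 alternatives. At day 21 Ptn lay at 4.96, 0.937 and 1.86 CPM in KPC and at 2.84, 5.12 and 2.86 CPM in control (log2 -0.47 ± 0.55, adjusted p 0.635). KPC replicate 1 lay within the controls and the other KPC libraries below them. Without KPC replicate 1 the log2 fold change was -1.34 (adjusted p 0.0738), and without KPC replicate 2 it was -0.07.

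At day 26 Ptn lay at 0.279, 0.394 and 2.71 CPM in KPC and at 5.29, 2.64, 3.87 and 3.51 CPM in control. KPC replicates 1 and 2 held only 5 and 7 Ptn counts, and replicate 3 held 54, as many as control replicate 2. The log2 fold change was -1.74 ± 0.77 (adjusted p 0.148) with all libraries and -3.50 ± 0.51 (adjusted p 6.9e-04) without KPC replicate 3. Over the 15 alternatives the adjusted p ran from 6.9e-04 to 0.328.

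Mdk (chromosome 2, 91929805 to 91932297, minus strand) was higher in the mean of the KPC libraries at every day, and the groups did not overlap at any day. At day 14 it lay at 27.7, 27.7, 24.4 and 24.8 CPM in KPC and at 17.1, 14.4 and 18.4 CPM in control, a fold of 1.57 (log2 0.65 ± 0.14, adjusted p 0.0418), and it was called. The call was lost when any single library other than KPC replicate 4 was left out, with adjusted p between 0.0394 and 0.121 and log2 fold changes between 0.55 and 0.72, and in the fit of all 20 libraries (adjusted p 0.630). At day 21 it lay at 16.8, 23.8 and 19.9 CPM in KPC and at 16.2, 13.4 and 11.0 CPM in control (log2 0.57 ± 0.20, adjusted p 0.0798). It was not called there by edgeR or by DESeq2 (adjusted p 0.0579), while limma-voom called it (0.0438), as did edgeR without KPC replicate 1 (0.0266, in a range of 0.0266 to 0.271 over 13 alternatives).

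At day 26 Mdk lay at 84.1, 52.8 and 22.4 CPM in KPC and at 14.4, 15.3, 13.0 and 15.8 CPM in control. The 4 controls lay close together, and even KPC replicate 3 lay above all of them. The log2 fold change was 1.86 ± 0.37, a fold of 3.63 (adjusted p 0.0598), so edgeR did not call it in the fit of that day's libraries. DESeq2 (adjusted p 1.7e-04) and limma-voom (0.00103) called it with the same libraries, as did edgeR in the fit of all 20 libraries (5.6e-04). Without KPC replicate 3 it was 2.21 ± 0.18 (adjusted p 4.4e-05), and over the 15 alternatives the adjusted p ran from 4.4e-05 to 0.184. With 1 scaling over all libraries, the 10 controls spanned 11.1 to 18.0 CPM, the day 14 KPC libraries 23.6 to 26.7 CPM and the day 26 KPC libraries 22.6 to 84.3 CPM.

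**Figure D2:**
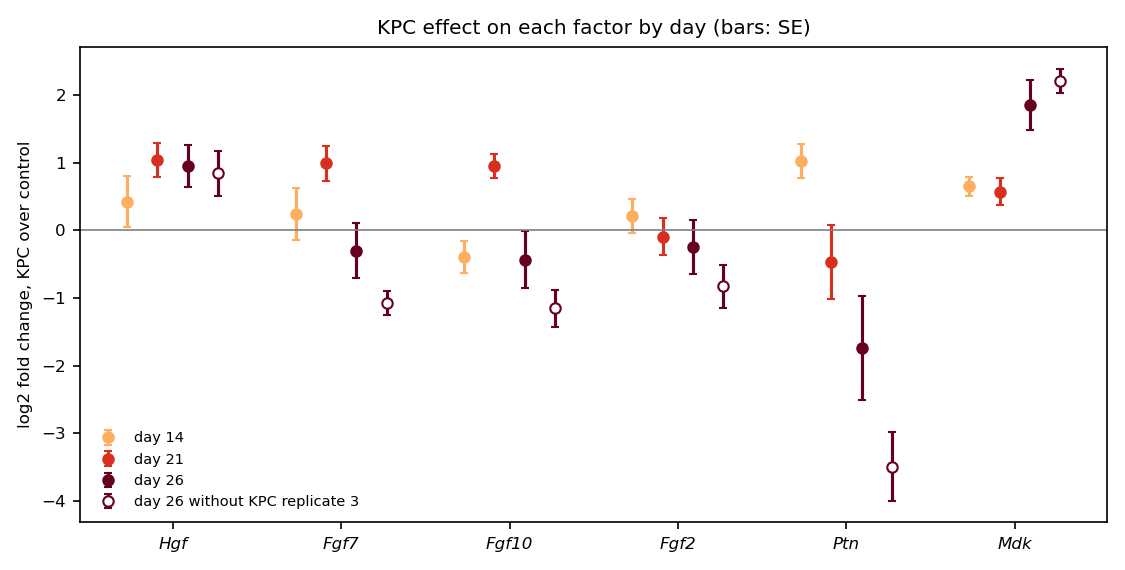
Log2 fold change (KPC over control, vertical axis) of each tested factor at day 14, day 21 and day 26; bars are standard errors and the open circle is day 26 without KPC replicate 3. Hgf, Fgf7 and Fgf10 lie near 1 at day 21, and at day 26 Mdk lies at 1.86 and Ptn at -1.74.

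Set against each other within a library, where scaling cancels, the counts of Mdk and Ptn lay farthest apart in KPC replicates 1 and 2 of day 26. The ratio of Mdk to Ptn counts was 3.26 to 4.21 in KPC and 3.88 to 5.75 in control libraries at day 14, and 3.39, 25.4 and 10.7 in KPC and 2.61 to 5.71 in control at day 21. At day 26 it was 302, 134 and 8.28 in KPC and 2.73 to 5.81 in control. The ratios of 302 and 134 rest on 5 and 7 Ptn counts. All 3 KPC libraries of day 26 lay above all controls of that day, with KPC replicate 3 nearest to them. KPC replicate 3 also lay below KPC replicates 2 and 3 of day 21. The ratio of Fgf7 to Fgf10 counts was 2.45 to 3.20 in KPC and 1.46 to 2.10 in control at day 14, without overlap, and overlapped between the groups at day 21 (1.72, 3.20 and 3.66 in KPC, 2.18, 3.90 and 2.39 in control) and again at day 26 (2.28 to 3.40 in KPC, 2.17 to 2.67 in control). These ratios were chosen after the values were seen and were not tested.

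**Figure D3:**
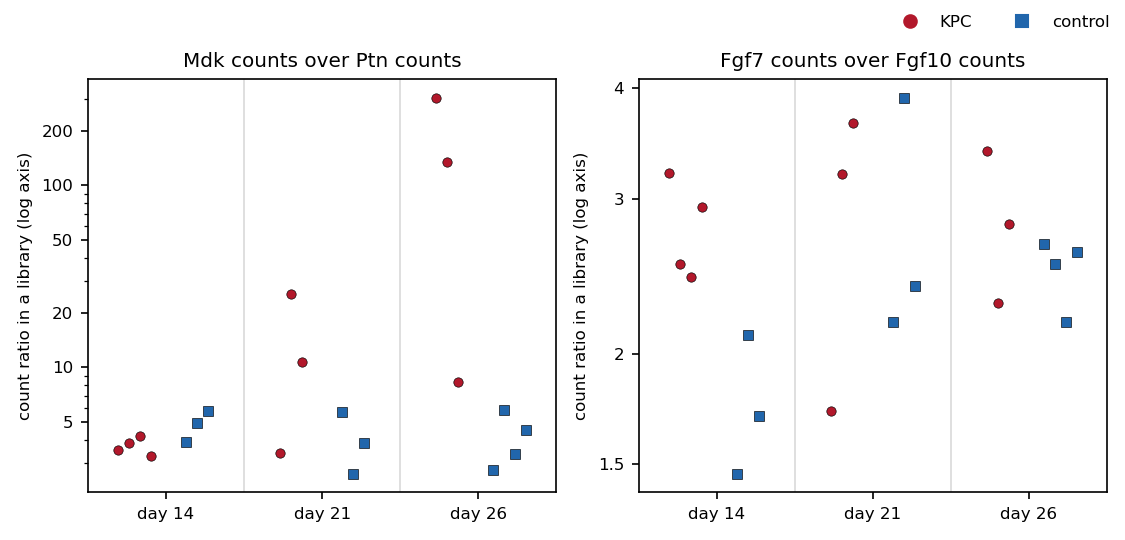
Ratio of Mdk to Ptn counts (left) and of Fgf7 to Fgf10 counts (right) in each library (log axes), with KPC libraries as circles and control libraries as squares. The Mdk to Ptn ratio reaches 302 and 134 in KPC replicates 1 and 2 at day 26, against 2.73 to 5.81 in the controls of that day.

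Counted over the 6 tested genes, 1 (Mdk, higher) was called at day 14, where 1.12% of all tested genes were called, 0.682% higher and 0.435% lower. The groups did not overlap for 2 of them, Ptn and Mdk, and for 13.3% of all genes. At day 21, 3 were called, Hgf, Fgf7 and Fgf10, all higher, where 12.5% of all genes were called, 6.38% higher and 6.11% lower. The groups did not overlap for 4 of the 6, and for 33.2% of all genes. The median log2 fold change of the 6 was 0.33 at day 14 and 0.76 at day 21, beside 0.01 for all tested genes at each of these days. The count of 3 at day 21, where 1643 of all genes were called, was 4 without KPC replicate 1 (2644 of all genes called). It was 2 without KPC replicate 3 (1192 of all genes) or control replicate 3 (853). It was 1 (Fgf10) without KPC replicate 2 (1103), control replicate 1 (717) or control replicate 2 (766). In the fit of all 20 libraries it was 0 (436 of all genes), and by limma-voom it was also 4, with Mdk (2328 of all genes). Of all genes, 839 were called higher and 804 lower, and with library size as the only scaling 1058 higher and 613 lower.

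At day 26, 0 of the 6 were called by edgeR, as were 0% of the 13157 tested genes, although 4508 genes, Hgf and Mdk among them, had an unadjusted p under 0.05. DESeq2 called 2838 genes, Hgf and Mdk among them, and limma-voom with quality weights 4519, among them Fgf7, Fgf10, Ptn and Mdk. The groups did not overlap for Hgf and Mdk, 2 of the 6, and for 29.0% of all genes. The median log2 fold change of the 6 was -0.27, beside 0.00 for all tested genes. Without KPC replicate 3, 4 of the 6 were called, Mdk higher and Fgf7, Fgf10 and Ptn lower, where 51.6% of all genes were called. On the first principal component over all libraries (34.4% of the variance), KPC replicates 1 and 2 of day 26 lay at 127 and 106, and KPC replicate 3 at -8.72, near the day 14 KPC libraries.

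The change of the KPC effect between days was tested in a single fit of all 20 libraries, with KPC set against the controls of the same day. Between days 14 and 21, 0 of the 6 were called, where 0.644% of all genes were called. At an unadjusted p under 0.05 there was 1 of the 6, DESeq2 also called 0 of them, and limma-voom called Fgf10 and Ptn. Fgf10 came nearest in edgeR, with a difference in log2 fold change of 1.37 ± 0.49 (day 21 minus day 14, adjusted p 0.202). Between days 14 and 26, 2 of the 6 were called, where 14.3% of all genes were. The KPC effect on Ptn was lower at day 26 than at day 14 (difference in log2 fold change -2.76 ± 0.83, adjusted p 0.0343), and that on Mdk was higher (1.21 ± 0.38, adjusted p 0.0413). Leaving out any of 10 of the 14 libraries of the 2 days ended the call of Ptn, and leaving out any library other than day 26 KPC replicate 3 ended that of Mdk, whose difference was 0.74 without day 26 KPC replicate 1. The replicate block ended both calls (adjusted p 0.0628 for Ptn and 0.113 for Mdk), and no filter that of Mdk (0.0508). The adjusted p ran from 4.0e-05 to 0.102 for Ptn and from 2.1e-05 to 0.140 for Mdk over 19 alternatives. Between days 21 and 26, edgeR called 0 of the 6 and 0% of all genes (3 of the 6 and 1825 of all at an unadjusted p under 0.05), with differences of 1.27 ± 0.40 for Mdk, -1.40 ± 0.50 for Fgf10 and -1.31 ± 0.58 for Fgf7. For that contrast DESeq2 called 57 genes and none of the 6, and limma-voom called 1049, with Fgf10 and Mdk among them. Without day 26 KPC replicate 3, edgeR called 3201 genes in it, including Fgf7, Fgf10, Ptn and Mdk.

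The sort markers were present in every library, with Pdgfra at 1198 to 1669 CPM and Ly6a, which encodes SCA-1, at 526 to 1460 CPM. The median log2 fold change of 10 sort and progenitor markers was 0.02, -0.19 and -0.82 at days 14, 21 and 26. Their summed level at day 26 was 20840, 29361 and 34634 CPM in KPC replicates 1 to 3 and 32968 to 39284 CPM in control. KPC replicates 1 and 2 thus lay below every control of that day. The sum overlapped between the groups at day 14. At day 21 it was 32406 to 36356 CPM in KPC and 37932 to 38846 CPM in control, without overlap, and 2 of the 10 were called higher and 3 lower. Sums of several marker lists of other cell types were higher in KPC without overlap at day 14. All sums of other cell types overlapped at day 21, and all but the macrophage sum at day 26. At day 14 the 12 endothelial markers summed to 756 to 944 CPM in KPC and 565 to 655 CPM in control, and 9 mural markers to 633 to 779 CPM in KPC and 428 to 590 CPM in control. The 12 macrophage and leukocyte markers summed to 35.5 to 84.5 CPM in KPC and 18.6 to 30.1 CPM in control, and 8 glial markers to 71.9 to 145 CPM in KPC and 25.6 to 48.8 CPM in control. The 6 satellite cell markers summed to 63.8 to 87.1 CPM in KPC and 49.3 to 58.1 CPM in control, also without overlap. The sums of 10 myofibre markers (86.3 to 267 CPM in KPC, 27.2 to 109 CPM in control) and of 6 tenocyte markers (686 to 1623 CPM in KPC, 556 to 924 CPM in control) overlapped. At day 14, 2 of 12 endothelial, 0 of 11 tested macrophage, 1 of 9 mural, 1 of 8 glial, 1 of 4 tested satellite cell, 0 of 9 tested myofibre and 0 of 6 tenocyte markers were called higher. Over all genes tested at day 14, 0.682% were called higher. Sums weigh abundant markers most, such as Tek (133 to 498 CPM over all libraries), Pdgfrb (322 to 538 CPM) and Thbs4 (261 to 1044 CPM). Median log2 fold changes at day 14 were 1.65 (endothelial), 1.39 (macrophage), 0.96 (mural), 1.35 (glial), 1.34 (satellite cell), 0.91 (myofibre) and 1.14 (tenocyte). At day 21, where 7 of 12 endothelial markers were called higher and 1 lower, and 2 of 10 tested macrophage markers higher, the endothelial sum was 1270, 821 and 705 CPM in KPC replicates 1 to 3 and 778 to 821 CPM in control, and the macrophage sum 157, 61.6 and 30.3 CPM in KPC and 18.7 to 39.8 CPM in control. Over all genes tested at day 21, 6.38% were called higher and 6.11% lower. The myofibre sum was 484, 87.1 and 46.5 CPM in KPC replicates 1 to 3 and 25.9 to 48.4 CPM in control, and the satellite cell (47.9 to 73.4 CPM in KPC, 40.9 to 49.0 CPM in control) and tenocyte sums (549 to 943 CPM in KPC, 525 to 715 CPM in control) overlapped. The mural sum was 885, 732 and 614 CPM in KPC and 664 to 724 CPM in control, with 2 of 9 markers called higher and 1 lower. The glial sum was 161, 81.6 and 45.1 CPM in KPC and 46.0 to 54.8 CPM in control, with 1 of 8 called higher. Median log2 fold changes at day 21 were 1.89 (endothelial), 1.70 (macrophage), 2.59 (myofibre), 0.70 (satellite cell), 0.07 (tenocyte), 0.86 (mural) and 0.97 (glial).

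At day 26 the macrophage sum was 499, 46.0 and 34.9 CPM in KPC replicates 1 to 3 and 27.8 to 32.4 CPM in control, and the endothelial sum 1284, 430 and 659 CPM in KPC and 604 to 776 CPM in control. The myofibre sum was 243, 102 and 74.6 CPM in KPC and 31.6 to 100.5 CPM in control, and the satellite cell (17.5 to 60.0 CPM in KPC, 33.8 to 60.6 CPM in control) and tenocyte sums (404 to 1063 CPM in KPC, 363 to 1104 CPM in control) overlapped. The mural sum was 909, 511 and 543 CPM in KPC and 529 to 675 CPM in control. The glial sum was 138, 45.5 and 42.7 CPM in KPC and 24.6 to 44.4 CPM in control. Median log2 fold changes at day 26 were 2.01 (endothelial), 2.78 (macrophage), 1.41 (myofibre), -0.21 (satellite cell), -1.84 (tenocyte), 1.18 (mural) and 1.77 (glial). No marker was called at day 26, where 0% of all tested genes were. The 8 epithelial and tumour line markers summed to 3.71 to 26.2 CPM over all libraries. The highest sums were 26.2 CPM in KPC replicate 2 of day 14 and 22.7 CPM in KPC replicate 1 of day 26. Controls reached at most 12.0 CPM. Krt8 had 0 counts in 17 of 20 libraries and Epcam in 15. Krt7 and Muc1 were counted in every library, at up to 5.79 and 6.21 CPM. The part of other cell types in the differences above was not tested beyond these values. In such bulk samples, fewer cells of a type and less RNA per cell cannot be told apart. The number that opens each library code, whose meaning the labels do not state, differs between all KPC and all control libraries at days 14 and 21, so whatever it stands for cannot be told apart from the tumour there. The same limit applies to the differences between days, which use those comparisons. KPC replicate 3 of day 26 carries the number 226, KPC replicate 2 of day 21 the number 276 and KPC replicate 4 of day 14 the number 231. Each of them differs in this from the other KPC libraries of its day. Control replicate 4 of day 26 carries the number 235, unlike the other controls of that day. At day 26, the 2 KPC and 3 control libraries that share the number 227 gave calls for Mdk, Ptn, Fgf7, Fgf10 and Hgf, 5 of the 6. That fit called 6287 of all genes and leaves out KPC replicate 3. For scale, the fit of day 26 that left out KPC replicate 3 alone called 6972 of 13517 tested genes (51.6%).

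Beyond the 8 genes, 4 lists of the same pathways were read at each day, and edgeR called members of them at day 21 alone, where 12.5% of all tested genes were called (6.38% higher and 6.11% lower). At days 14 and 26 it called 1.12% and 0% of all tested genes, so no list could hold a call at day 26. Of 15 tested genes listed as related ligands, 2 were called higher and 4 lower at day 21, with a median log2 fold change of -0.48. That list goes by family name, and being on it does not show that a gene encodes a receptor ligand. Fgf1, a broad FGF receptor ligand without a signal peptide, lay at 14.6 ± 7.11 CPM in KPC and 51.3 ± 8.80 CPM in control (SD, n = 3 each, as for the other list genes at day 21; log2 -1.81 ± 0.35, adjusted p 0.0177), opposite in direction to Fgf7 and Fgf10. Of 13 alternatives, 5 ended the Fgf1 call: no filter (adjusted p 0.0576), the fit of all 20 libraries (0.0842), and leaving out KPC replicate 1 (0.0611), control replicate 1 (0.0567) or control replicate 2 (0.0586). Fgf16 (4.84 ± 0.290 CPM in KPC and 11.9 ± 1.62 CPM in control, log2 -1.30 ± 0.23, adjusted p 0.00373) and Manf, an endoplasmic reticulum protein named as a neurotrophic factor (71.4 ± 7.90 CPM in KPC and 118 ± 22.1 CPM in control, log2 -0.73 ± 0.14, adjusted p 0.00767), were also lower. The fourth lower gene of the list was Fgf11, and the higher ones were Hbegf and Tgfa, ligands of the EGF receptor. These are named here after their values were seen. Ntf3, which encodes neurotrophin-3, was not called at day 21 (adjusted p 0.386). At day 26 none of 15 was called by edgeR, where Fgf1 lay at 11.3 ± 12.3 CPM in KPC and 63.2 ± 16.6 CPM in control (SD, n = 3 and 4) without overlap (log2 -2.48 ± 0.68, adjusted p 0.0722).

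Of 23 tested receptors and co-receptors 4 were called higher and 0 lower at day 21 (median 0.24). Beside Met and Fgfr3 these were Sdc4, a heparan sulphate syndecan that presents FGFs and binds midkine (164 ± 29.0 CPM in KPC and 84.1 ± 11.0 CPM in control, log2 0.96 ± 0.14, adjusted p 0.00136), and Nrp1, a neuropilin co-receptor (426 ± 107 CPM in KPC and 201 ± 28.4 CPM in control, log2 1.08 ± 0.18, adjusted p 0.00373). Ntrk2, Ptprz1, Erbb2 and Erbb3, which encode receptors of BDNF, of pleiotrophin and midkine, and of neuregulins, gave no call at any day they were tested. Ntrk2 lay at 296 ± 28.7 CPM in KPC and 256 ± 18.1 CPM in control at day 21 (adjusted p 0.254). Erbb2 (adjusted p 0.352) and Erbb3 (0.502) were not called there, Ptprz1 was tested at day 21 alone and at most 0.485 CPM in either mean (adjusted p 0.740), and Alk and Erbb4 had too few counts for a test at any day.

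Of 21 tested genes for proteases, inhibitors and heparan sulphate enzymes that act on these ligands, 2 were called higher and 6 lower at day 21 (median -0.26). The proprotein convertases Pcsk6 (962 ± 115 CPM in KPC and 1873 ± 64.9 CPM in control, log2 -0.96 ± 0.12, adjusted p 4.5e-04) and Pcsk5 (log2 -0.80 ± 0.12, adjusted p 0.00142) were lower. So was Sulf2 (148 ± 29.4 CPM in KPC and 309 ± 11.5 CPM in control, log2 -1.07 ± 0.14, adjusted p 6.1e-04), a sulphatase that trims the heparan sulphate to which FGFs bind. Of 21 genes of ERK feedback and the FGF response, 6 were called higher and 0 lower (median 0.30). Myc (336 ± 14.8 CPM in KPC and 93.1 ± 5.50 CPM in control, log2 1.85 ± 0.10, adjusted p 2.7e-06), Egr2 (log2 1.49 ± 0.19, adjusted p 4.8e-04) and Egr1 (log2 1.04 ± 0.14, adjusted p 6.5e-04) had the smallest p, and these transcription factors respond to many stimuli. Among the genes closer to FGF signalling, Dusp6, an ERK phosphatase (39.6 ± 6.63 CPM in KPC and 25.1 ± 4.24 CPM in control, log2 0.66 ± 0.17, adjusted p 0.0232), and the ETS factor Etv4 (log2 1.48 ± 0.39, adjusted p 0.0286) were called higher. Of 13 alternatives, 5 ended the Etv4 call, namely the fit of all 20 libraries and leaving out KPC replicate 2, KPC replicate 3, control replicate 1 or control replicate 3 (adjusted p 0.0734 to 0.116). Leaving out control replicate 1 (0.116) or control replicate 3 (0.0942) ended that of Dusp6. Etv5 (log2 0.46 ± 0.20, adjusted p 0.148) and the Sprouty genes Spry2 (0.09 ± 0.14, adjusted p 0.715) and Spry4 (0.00 ± 0.14, adjusted p 0.985) were not, although Etv5 was called by limma-voom (0.0452) and without KPC replicate 1 (0.00598). The fit of all 20 libraries also ended the calls of Manf, Sdc4, Pcsk5, Pcsk6, Egr1 and Egr2, and Fgfr3 and Spint2 were not refitted under the alternatives. The medians of these lists stand beside 0.01 for all genes tested at that day. All 4 lists held 0 called genes at days 14 and 26 by edgeR, where 1.12% and 0% of all tested genes were called. At an unadjusted p under 0.05, the lists in the order given here held 2, 7, 4 and 6 genes at day 14 and 5, 8, 10 and 10 genes at day 26, where all 10 of the response genes were higher in KPC. Over all genes, 1904 of 13344 at day 14 and 4508 of 13157 at day 26 had such a p.

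**Figure D4:**
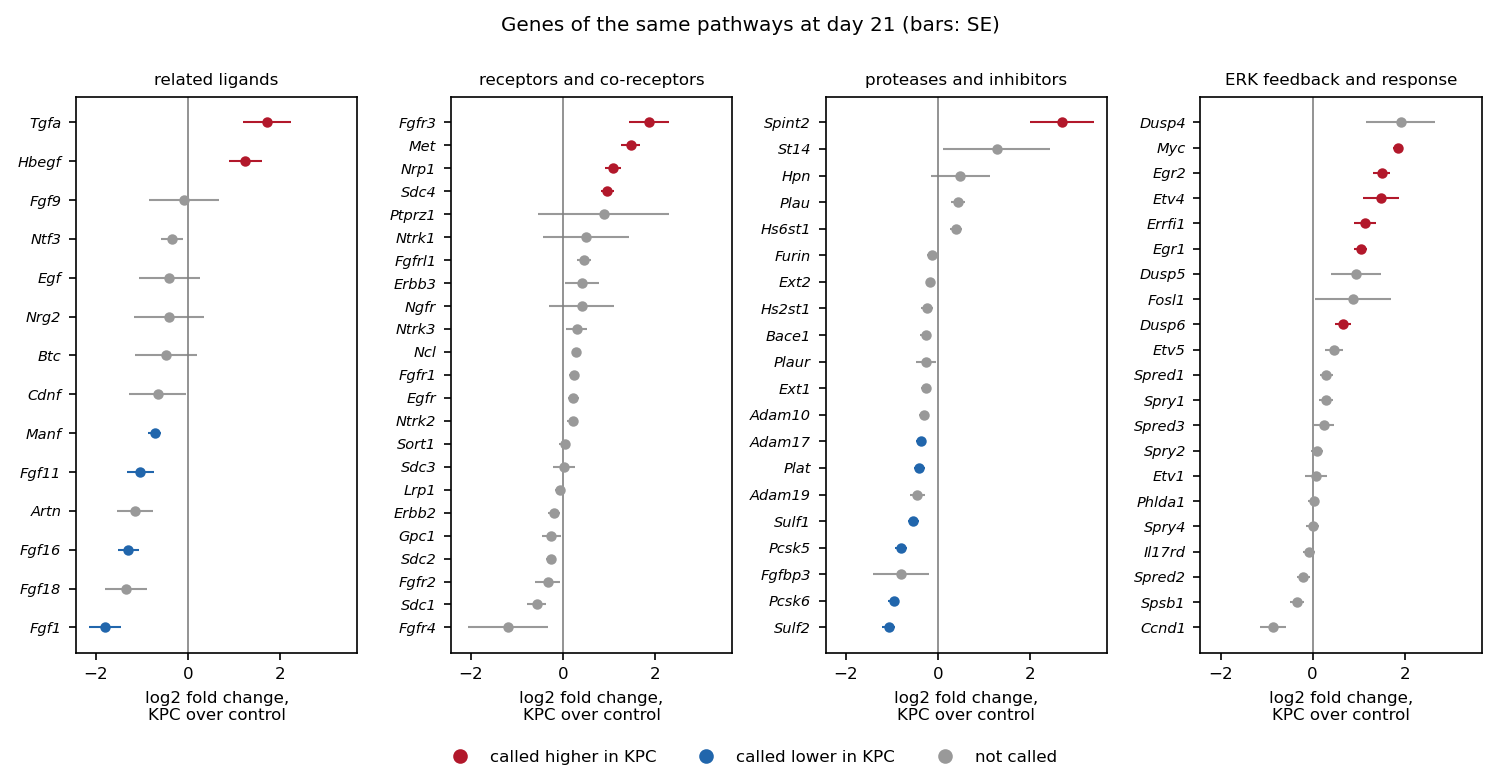
Log2 fold change (KPC over control, horizontal axis, with standard errors) at day 21 of tested genes listed as related ligands (14 of 15), receptors and co-receptors (23 of 23), proteases and inhibitors (20 of 21), and ERK feedback and response genes (21 of 21); red is called higher in KPC, blue called lower and grey not called. Fgf1 lies lowest in the ligand list at -1.81 and Met at 1.47 among the receptors.

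Over the 20 libraries, the genes whose log2 CPM followed the factors other than Mdk most closely were, by Pearson's r among 11042 candidates, P2rx7 (0.87) for Hgf, followed by Nrp1 (0.82), Angel1 (0.80) for Fgf2, Zfp641 (0.89) for Fgf7, Phf11d (0.92) for Fgf10, and Irs3 (0.94) for Ptn. Phf11d was also among the 3 closest to Fgf7 (0.84). After subtraction of each group mean the closest were Ddx60 (0.72) for Hgf, Epb4.1l2 (0.88) for Fgf2, Pcdh18 (0.95) for Fgf7, D3Ertd751e (0.93) for Fgf10, Armcx2 (0.93) for Ptn and Hspa9 (0.96) for Mdk. All these values come from the same 20 libraries, which share depth and the spread among the day 26 KPC libraries, and they describe these libraries only.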

How the data were processed

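The authors deposited raw counts per gene symbol in a table for each day, as whole numbers without normalization. Per the submitters' processing notes, bcl2fastq (2.20), Bowtie, STAR, R (4.2.1) and DESeq2 (1.36.0) were used, with the mm10 build. No source used here names the counting program, its strand setting or its annotation. Per the labels' protocols, libraries were made from RNA of integrity 7 or more with a stranded mRNA kit and sequenced from both ends for 59 bases. Symbols that had become dates, 25 in each of the tables of days 14 and 21, stayed in the fits unnamed.

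Library codes tied all 20 columns to their samples. Each day was fitted alone with edgeR 4.0.16 under R 4.3.3 by its robust quasi-likelihood method, 2-sided, after TMM scaling and filterByExpr (count 10, total 15). A standard error is the size of the log2 fold change over the root of its F statistic. CPM given with a fold change are scaled within the day. Contrasts between days come from a single fit of 6 groups. Depth was 12.9 to 26.4 M counts per library, and limits from a count of 0 cover counting error alone, as molecules were not tagged. Replicates of a group differed by at least 12.1 times the sampling noise (chi-square per degree of freedom), so none was treated as a repeat. The p-values measure the spread between these libraries.

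The alternatives were DESeq2 1.42.0, limma 3.58.1 (voom with quality weights), other scalings, no filter, a replicate block, all libraries in 1 fit, the libraries of code 227 alone and leaving out each library. The fits were tested on simulated counts, drawn for each gene separately. No simulated library stood apart across genes as KPC replicate 3 of day 26 does, so that test does not cover such a library. The genes, lists, markers and tests were chosen with earlier results of these data known. The named genes are all 8 factors, the 3 called genes with the smallest p of each list at a day, and Met, Fgfr1, Fgfr2, Ntrk2, Ptprz1, Alk, Erbb2, Erbb3, Erbb4, Spry2, Spry4, Dusp6, Etv4 and Etv5. Genes of likeness needed a mean log2 CPM of at least 1 (prior count 2). Fgfr3, Spint2, Fgf11, Hbegf, Tgfa, Ntf3 and Nudt6 are named after their values were seen. A few other genes are counted in the lists and are not reported here. Positions are from GENCODE vM21.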

Additional observations from a re-analysis of the deposited data

Results flagged for a closer look

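Fgf2 in control replicate 2 of day 26 lay at 12.0 CPM, far from the other 3 controls of that day at 7.67 to 8.36 CPM. Of 12 sets of 4 libraries examined in this way it was the only set with such a gap, and about 1 in 20 sets shows such a gap by chance. Fgf2 was not called at day 26 with or without that library.

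The KPC effect on Ptn differed between days 26 and 14 by -2.76 on the log2 scale (SE 0.83, adjusted p 0.0343 by edgeR), with 4 of 4 KPC libraries above every control at day 14 and 2 of 3 below every control at day 26. The KPC effect on Mdk differed in the other direction by 1.21 (SE 0.38, adjusted p 0.0413), with every KPC library above every control at both days. With the replicate block neither difference was called (adjusted p 0.0628 for Ptn and 0.113 for Mdk).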

How the results depend on the processing

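Over 59 genes and comparisons, 881 values were computed under alternatives. Of these, 755 kept their direction and their side of the threshold, 63 lost the call, 32 gained it and 31 changed sign. The cause of these shifts was not tested. At day 14 the number of genes called (149) was 600 with DESeq2, 649 with limma-voom, 278 with no filter, 361 with the replicate block, 2 in the fit of all 20 libraries and 40 to 255 with a library left out. The number of the 8 factors called (1) was 2 with DESeq2 and limma-voom, 0 in the fit of all 20 libraries and 0 to 1 with a library left out. At day 21 the fit of all 20 libraries called 436 genes and 0 of the factors, and leaving out a library gave 717 to 2644 genes and 1 to 4 factors. At day 26 DESeq2 called 2838 genes and 2 factors, limma-voom 4519 and 4, the fit of all 20 libraries 4889 and 3, the libraries of code 227 alone 6287 and 5, and leaving out a library gave 0 to 6972 genes and 0 to 4 factors.

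Between days 14 and 21, DESeq2 called 373 genes, limma-voom 1893 genes and 2 factors, and leaving out a library gave 24 to 162 genes. Between days 14 and 26, limma-voom called 4246 genes, the replicate block 829 genes and 0 factors (Ptn -3.26, adjusted p 0.0628, and Mdk 1.05, adjusted p 0.113), no filter left 1 factor (Ptn), and leaving out a library gave 466 to 5900 genes and 0 to 2 factors. Between days 21 and 26, DESeq2 called 57 genes, limma-voom 1049 genes and 2 factors, library size alone 1 gene, the replicate block 5 genes, and leaving out a library gave 0 to 3201 genes and 0 to 4 factors.

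Signs turned in values that were not called. With limma-voom the log2 fold change was -0.021 for Hgf at day 14, 0.040 for Fgf2 and -0.028 for Spry4 at day 21, and the difference between days 21 and 14 was 0.061 for Fgf2. No filter gave -0.0067 for Spry4. With the replicate block Hgf was -0.0031 at day 14, Spry4 was -0.0041 at day 21, and the Hgf difference between days 26 and 21 was 0.063. With a library left out, Hgf ran from -0.016 to 0.69 and Fgf7 from -0.076 to 0.49 at day 14, Fgf2 from -0.38 to 0.14, Spry2 from -0.018 to 0.28 and Spry4 from -0.13 to 0.10 at day 21, and Fgf2 from -0.83 to 0.098 and Fgf7 from -1.07 to 0.030 at day 26. The differences ran from -0.20 to 0.095 for Mdk between days 21 and 14, from -0.72 to 0.35 for Fgf10 between days 26 and 14, and from -0.31 to 0.050 for Hgf and -0.71 to 0.18 for Fgf2 between days 26 and 21.

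The deviations of same-numbered KPC and control libraries correlated at -0.098 to 0.13, and at 0.064, 0.040 and 0.13 at day 26. With so few libraries in a group, these values cannot show whether the replicate numbers pair the samples. The replicate block changed no call of the 8 factors within a day. Bdnf and Nrg1 were too shallow for any test, and Ptn at day 26 rests on 5 and 7 counts in KPC replicates 1 and 2.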
